A study of Mus musculus with 5 samples.

Results

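The genes described here belong to families of membrane carriers that move organic anions, organic cations and conjugated drugs into and out of cells. They were taken as every gene except Abcb11 with a probe set of exactly 1 symbol in the Slco, Slc22a, Abcb, Abcc or Abcg family. Abcb11 was left out by the rule of choice, and the rest gave 58 of the 22059 genes tested. Uptake was represented by 34 genes (13 Slco and 21 Slc22a) and export by 24 genes (8 Abcb, 10 Abcc and 6 Abcg). The uptake counts and medians include Slc22a13b, annotated as a transcribed pseudogene, and Slco6b1, annotated as a long noncoding RNA. Within these families no measured value picked a gene, although the families were chosen with earlier results of these data known. Labelled cDNA made from total RNA was hybridized to 5 Affymetrix mouse arrays, 3 from LRRK2-GS astrocytes and 2 from LRRK2-WT astrocytes. Both groups were labelled as primary astrocytes, prepared by the methods from cerebral cortices of newborn heterozygous transgenic mice that carried either G2019S LRRK2 (LRRK2-GS) or wild-type LRRK2 (LRRK2-WT), and both were kept without serum to deplete microglia and meningeal cells. All 5 arrays came from cells treated with tunicamycin, an inhibitor of N-linked glycosylation that stresses the endoplasmic reticulum, at 0.2 μg/ml for 3 h by the labels, whereas the paper describes a longer treatment and, in a legend, a lower dose. Arrays of unstressed cells were not analysed here, and each value compares the genotypes under stress. The number of mice or cultures behind an array was not stated. The spread behind each p-value is thus that between arrays, which may be technical.

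Organic anion transporting polypeptides (the Slco genes) and the organic anion, cation and carnitine carriers of the Slc22a family bring bile acids, hormones, prostaglandins, carnitine and drugs into cells. ATP-binding cassette (ABC) proteins of the Abcb, Abcc and Abcg families spend ATP to pump phospholipids, conjugates, sterols and drugs outward, although some members sit in mitochondria or other inner membranes or form channel subunits. In the brain these carriers are best known from the blood-brain barrier and the choroid plexus, and in the liver they handle the passage of bile acids and conjugates from blood to bile. Signals are log2 array values as deposited, and a positive difference means a higher signal in LRRK2-GS. To be called, a gene had to reach both thresholds of the methods, a limma adjusted p no greater than 0.05 and a change over 1.5-fold.

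The labelled cell type was set against marker genes. Of 15 astrocyte markers, 10 had a mean above background, taken as 3.39, a level that 95% of the 1107 probe sets of olfactory receptors did not exceed, and Aqp4, S100b, Slc1a3, Gjb6 and Atp1b2 did not. Gfap, the intermediate filament of astrocytes, read 4.10, 4.10 and 4.28 in LRRK2-GS, against 4.10 and 3.99 in LRRK2-WT. All 16 hepatocyte markers measured lay above the 90th percentile of all probe sets (6.42) on every array. So did 3 of the 15 astrocyte markers, Aldh1l1, Slc4a4 and Glul. Albumin (Alb) read 12.62, 12.55 and 12.66 in LRRK2-GS, against 12.62 and 12.69 in LRRK2-WT. The samples are therefore called by their labels only. The arrays also differed by sex-linked genes. Xist read 2.41, 2.65 and 2.64 in LRRK2-GS, against 8.49 and 8.09 in LRRK2-WT, and the Y-linked Eif2s3y read 6.13, 6.68 and 6.42 in LRRK2-GS, against 2.03 and 2.31 in LRRK2-WT.

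None of the 58 transporter genes was called, and neither was any other probe set (0%). The paper, in contrast, reports altered genes and lists Slco1a4, by its full name, at the same 2.67-fold lower. Abcg2, an exporter, stood higher in LRRK2-GS and Slco1a4, an uptake carrier, stood lower, and these were the only 2 of the 58 over 1.5-fold, against 0.457% of all 23396 tested probe sets over 1.5-fold higher and 0.500% over 1.5-fold lower. A second gene passed 1.5-fold lower without LRRK2-GS 1 (Abcc4) or without LRRK2-GS 3 (Slc22a28), and a second passed 1.5-fold higher without LRRK2-WT 1 (Abcg8). The median difference was 0 for uptake, 0.01 for export and 0 for all tested probe sets. The smallest limma adjusted p of the 58 was 0.826. At an unadjusted p under 0.05 limma took 2 of the 58, Abcg2 and Abcg3, against 2.09% of all probe sets.

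The promoters of 4 genes are shown first, as RefSeq gives them in GRCm38.p6, from 250 bases before to 50 after a start site, 5′ to 3′ on the strand of the gene. Abcg2 and Slco1a4 were the 2 genes over 1.5-fold, Slco2a1 was the other uptake gene above background whose arrays did not overlap between groups, and Abcg8, whose groups overlapped, shares its window with Abcg5. Capitals mark matches on either strand to any of 11 motifs searched, chosen after the values were seen: the TATA box (TATAAA), the CCAAT box, the GC box (GGGCGG), the E-box (CACGTG), the nuclear receptor half-site (AGGTCA), the cyclic AMP response element (TGACGTCA), the GATA motif (AGATAA), the core of the HNF1 site (GTTAAT), the STAT site (TTCNNNGAA), the antioxidant response element (TGACNNNGC) and the C/EBP and ATF composite element (TGATGNAAT). Windows were found for 46 of the 58 genes, 56 in all.
Abcg2 promoter, the window of 1 of 3 start sites, chr6:58640296-58640595, plus strand: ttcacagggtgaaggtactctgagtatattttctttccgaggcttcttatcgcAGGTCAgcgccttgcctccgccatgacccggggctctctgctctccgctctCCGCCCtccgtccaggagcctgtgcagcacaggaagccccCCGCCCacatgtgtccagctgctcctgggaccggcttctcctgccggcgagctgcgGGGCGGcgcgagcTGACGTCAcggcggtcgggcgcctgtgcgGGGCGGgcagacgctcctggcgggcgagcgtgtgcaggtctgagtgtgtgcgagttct
Slco1a4 promoter, chr6:141856171-141856470, minus strand: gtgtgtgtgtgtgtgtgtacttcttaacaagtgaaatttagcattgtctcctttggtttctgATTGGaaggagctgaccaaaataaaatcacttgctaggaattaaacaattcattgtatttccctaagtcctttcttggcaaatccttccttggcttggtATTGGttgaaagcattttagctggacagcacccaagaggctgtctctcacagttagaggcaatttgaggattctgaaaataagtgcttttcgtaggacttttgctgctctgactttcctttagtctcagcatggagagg
Slco2a1 promoter, chr9:103008237-103008536, plus strand: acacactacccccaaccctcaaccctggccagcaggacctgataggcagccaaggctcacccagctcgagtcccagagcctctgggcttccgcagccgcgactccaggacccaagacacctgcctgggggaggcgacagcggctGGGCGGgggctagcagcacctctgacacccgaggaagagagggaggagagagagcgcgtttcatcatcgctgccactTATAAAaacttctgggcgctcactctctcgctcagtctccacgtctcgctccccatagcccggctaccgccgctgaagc
Abcg8 promoter, the window of 1 of 2 start sites, chr17:84682871-84683170, plus strand: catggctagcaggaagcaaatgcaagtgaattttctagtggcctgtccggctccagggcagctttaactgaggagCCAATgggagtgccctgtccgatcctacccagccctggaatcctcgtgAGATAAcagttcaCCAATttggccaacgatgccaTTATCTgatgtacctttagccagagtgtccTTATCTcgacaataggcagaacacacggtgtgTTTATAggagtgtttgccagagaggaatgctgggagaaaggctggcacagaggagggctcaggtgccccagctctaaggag

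The Abcg2 window held the cyclic AMP response element TGACGTCA beginning 37 bases before the start, a motif in 1.8% of all 32544 promoter windows. It also held 4 matches to the GC box GGGCGG (35.9% of windows) and 1 to the nuclear receptor half-site AGGTCA (16.2%). The shares are per window, and of the 3 windows of Abcg2 only that shown held TGACGTCA. Of the others, not shown, 1 held 2 matches to AGGTCA and 1 to TATAAA. The other held 2 GC boxes, 1 match to TATAAA and 1 CCAAT box. The Slco1a4 window held 2 reversed CCAAT boxes (37.4% of windows), beginning 188 and 89 bases before the start, and no match to the other motifs. The Slco2a1 window held a TATA box beginning 29 bases before the start (TATAAA, 13.6% of windows) and a GC box. In the Abcg8 window the Abcg5 start site at 84683011 lies 110 bases from the Abcg8 start site at 84683121, on the opposite strand, and the stretch held 3 matches to the GATA motif AGATAA (11.2%), 2 CCAAT boxes and a TATA box. No matches overlapped in the 4 windows shown. The other Abcg8 window, not shown, held no match to any motif searched. Of the remaining motifs, none of which matched the 4 windows, the E-box was in 7.17% of all windows, the HNF1 core in 7.13%, the STAT site in 8.33%, the antioxidant response element in 12.4% and the composite element in 0.956%. These are matches of letters and say nothing of binding in these cells.

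Slco1a4 encodes Oatp1a4, which carries bile acids, steroid conjugates and cardiac glycosides into cells and is known from mouse liver and the blood-brain barrier. Its signal was 6.79, 6.35 and 7.84 in LRRK2-GS, against 8.25 and 8.58 in LRRK2-WT. All 3 LRRK2-GS arrays lay below both LRRK2-WT arrays, with LRRK2-GS 3 nearest to them. The means were 6.99 ± 0.77 in LRRK2-GS (SD, n = 3) and 8.41 ± 0.23 in LRRK2-WT (SD, n = 2), which is 2.67-fold lower in LRRK2-GS. The difference of -1.42 had a 95% interval of -2.97 to 0.14 and a limma adjusted p of 0.826. The exact permutation test over the arrays gave a two-sided p of 0.2. This p was taken as 2 times the smaller tail, and 0.2 is the smallest that this form allows with 3 against 2 arrays.

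Slco2a1, the prostaglandin transporter that clears prostaglandins from the extracellular space, read 7.17, 6.93 and 6.92 in LRRK2-GS, against 7.26 and 7.58 in LRRK2-WT. The groups did not overlap, although LRRK2-GS 1 and LRRK2-WT 1 lay close together. The difference was -0.41 (95% interval -0.84 to 0.01, limma adjusted p = 0.826), and without LRRK2-WT 2 it was -0.25. These 2 were the only uptake genes with every LRRK2-GS array below both LRRK2-WT arrays, and no uptake gene had every LRRK2-GS array above both. Of all tested probe sets, 3.74% had every LRRK2-GS array below both LRRK2-WT arrays and 3.76% had every one above.

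Slco2b1, which takes up steroid sulfates and many drugs, read 5.40, 5.69 and 6.13 in LRRK2-GS, against 5.50 and 5.57 in LRRK2-WT. The LRRK2-GS arrays lay on both sides of the LRRK2-WT arrays and the difference of 0.20 had an interval of -0.54 to 0.94. Without LRRK2-GS 3 it was 0.0049. A second, dimmer probe set of Slco2b1 differed by -0.12, the opposite direction, and the mean over both probe sets differed by 0.04. The other 10 Slco genes, among them the thyroxine carrier Slco1c1, had means not above background and differences of -0.06 to 0.17. On chromosome 6 the neighbours of Slco1a4 were among these. Slco1c1, Slco1a6 and Slco1a5 lay below background, and Abcc9, which closes the same cluster of 5 genes, was the only other one above it.

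**Figure D1:**
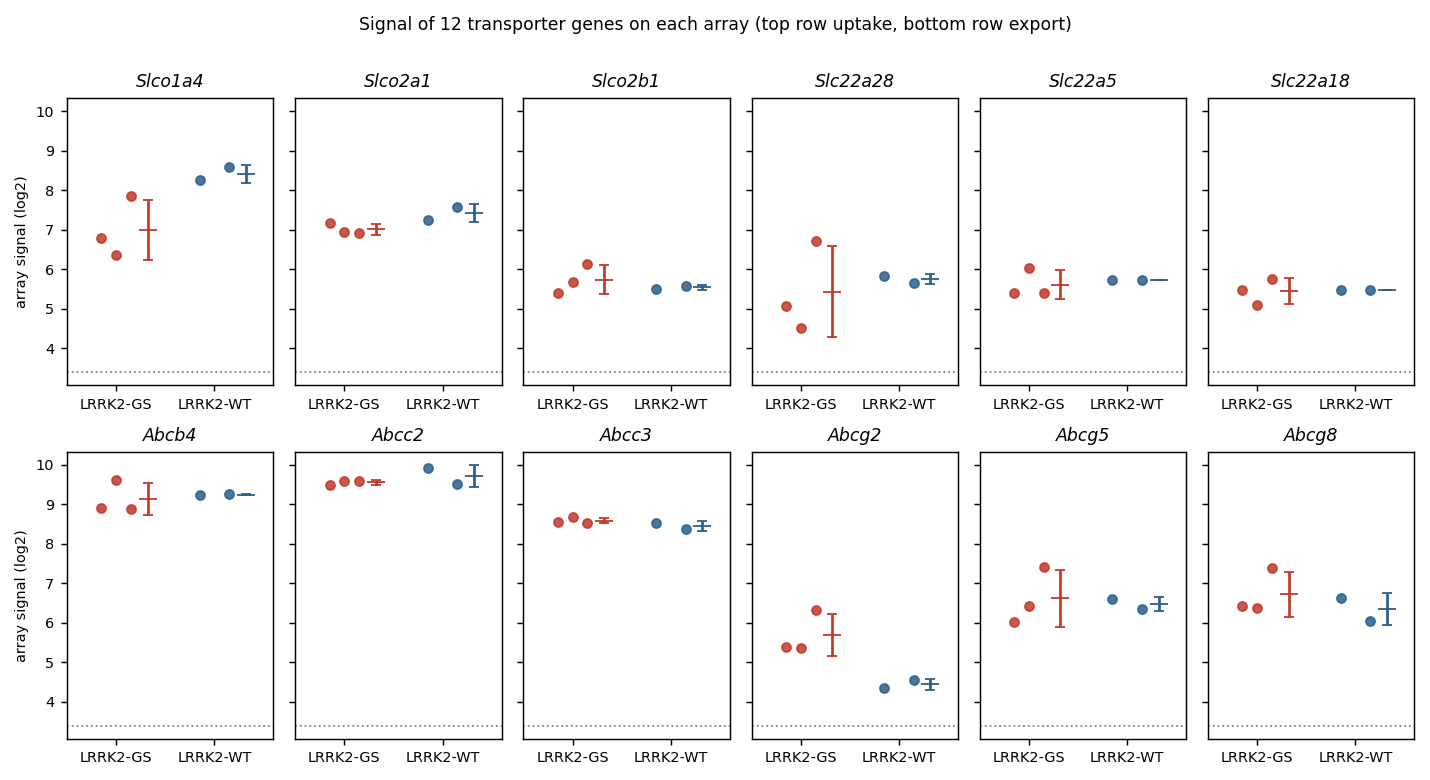
Signal of 12 named transporter genes on each array (log2), uptake in the top row and export in the bottom row, with LRRK2-GS arrays left of LRRK2-WT arrays in each panel. Points are single arrays, the cross and bar are the mean and SD of the group, and the dotted line is the background level of 3.39. The groups separate for Slco1a4, Slco2a1 and Abcg2 and overlap in the other panels.

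The Slc22a family was represented by 10 genes above background of 21, none of them with groups that did not overlap. Slc22a28, a rodent gene of the organic anion carrier branch, varied most among them. It read 5.07, 4.50 and 6.71 in LRRK2-GS, against 5.83 and 5.66 in LRRK2-WT, so that LRRK2-GS 3 lay above both LRRK2-WT arrays and the other 2 below. Its difference was -0.32 (interval -2.59 to 1.96), and without LRRK2-GS 2 it was 0.15. Slc22a5, the sodium-dependent carnitine transporter Octn2, read 5.40, 6.04 and 5.40 in LRRK2-GS, against 5.74 on both LRRK2-WT arrays, with LRRK2-GS 2 above and the others below. Its difference of -0.13 was -0.34 without LRRK2-GS 2 and -0.02 without either LRRK2-GS 1 or LRRK2-GS 3. Slc22a18, an imprinted gene of an organic cation carrier-like protein, read 5.46, 5.10 and 5.75 in LRRK2-GS, against 5.46 on both LRRK2-WT arrays.

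Slc22a7, a liver and kidney carrier outside the naming rule, differed by 0.26 with groups that overlapped. Slc22a13, known in humans to carry urate and nicotinate, differed by -0.01, Slc22a15 by 0.03 and Slc22a17, the receptor for lipocalin 2, by -0.15. Slc22a17 read 4.18, 4.06 and 3.99 in LRRK2-GS, against 4.18 and 4.27 in LRRK2-WT, and LRRK2-GS 1 lay with LRRK2-WT 1. Slc22a23, an orphan carrier, held the single value 6.83 on all 5 arrays and shared it with the probe set of Akap1. Such repeats were common. In all, 6 of the 58 genes, all of them uptake genes, held 1 value on every array, as did 1989 of all tested probe sets, and 38 of the 58 had the same value on at least 2 arrays, as did 18203 of all tested. No reason for this is given in the sources used here, and it limits what a difference of 0 can show.

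Abcg2 encodes the breast cancer resistance protein, which exports urate, porphyrins and many drugs. Its signal was 5.39, 5.37 and 6.32 in LRRK2-GS, against 4.35 and 4.55 in LRRK2-WT. All 3 LRRK2-GS arrays lay above both LRRK2-WT arrays, and LRRK2-GS 3 was the farthest. The means were 5.69 ± 0.54 in LRRK2-GS (SD, n = 3) and 4.45 ± 0.14 in LRRK2-WT (SD, n = 2), which is 2.37-fold higher in LRRK2-GS. The difference of 1.25 had a 95% interval of 0.16 to 2.33, and limma gave an unadjusted p of 0.034 and an adjusted p of 0.826. Without LRRK2-GS 3 the difference was 0.94. The unadjusted limma p was above 0.05 without any one of the other 4 arrays, at 0.061 without LRRK2-GS 1, 0.058 without LRRK2-GS 2, 0.155 without LRRK2-WT 1 and 0.116 without LRRK2-WT 2.

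In mouse liver Slco1a4 is known to be higher in females and Abcg2 in males. All 3 LRRK2-GS arrays were low in Xist and high in Eif2s3y, Uty and Kdm5d, and both LRRK2-WT arrays the reverse, so that sex-linked signal and genotype cannot be told apart here. The 16 hepatocyte markers gave summed levels (log2 of the sum) of 15.33 to 15.49 in LRRK2-GS and 15.49 to 15.50 in LRRK2-WT, with 4 markers higher and 12 lower in LRRK2-GS. The 10 brain endothelial markers gave 8.92 to 9.13 in LRRK2-GS and 9.14 to 9.35 in LRRK2-WT, and all 10 had a mean above background. Of these, 1 was higher (Slc2a1, difference 0.71), 8 were lower (to -0.42) and 1 was without a difference (Esam, 3.41 on every array). Slc22a6 and the oligodendrocyte marker Mog held this same value. Signal above background was not particular to this list. All 10 fibroblast and stellate cell markers reached it (3 higher, 6 lower), as did 9 of 10 microglia and macrophage markers (2 higher, 8 lower). The neuron, oligodendrocyte, choroid plexus, cholangiocyte and kidney lists ranged lower, from 2 of 10 (kidney proximal tubule) to 4 of 10 (neuron). The part of the hepatocyte and brain endothelial levels in the values of Slco1a4 and Abcg2 was not tested. In bulk RNA, fewer cells of a type and less RNA per cell cannot be told apart.

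The sterol exporters Abcg5 and Abcg8, which work as a heterodimer and move cholesterol and plant sterols into bile and gut, had like values by array. Abcg5 read 6.02, 6.42 and 7.42 in LRRK2-GS, against 6.60 and 6.35 in LRRK2-WT. Abcg8 read 6.43, 6.37 and 7.38 in LRRK2-GS, against 6.62 and 6.05 in LRRK2-WT. In both, LRRK2-GS 3 stood above every other array and the other LRRK2-GS arrays lay among or below the LRRK2-WT arrays. The differences were 0.15 (interval -1.30 to 1.59) for Abcg5 and 0.39 (interval -0.87 to 1.65) for Abcg8, and without LRRK2-GS 3 they were -0.25 and 0.06. Their gene models overlap on chromosome 17 (Abcg5 84658174 to 84683011, Abcg8 84676302 to 84700333), and whether the probes separate them was not stated. Abcg1, which exports cholesterol, held 4.64 on 4 arrays and 4.58 on LRRK2-WT 2. The 4 Abcg genes above background were all higher in the LRRK2-GS mean, with a median of 0.27, and 1 of them had groups that did not overlap. Abcg3, a rodent gene below background, read 3.12, 2.98 and 3.12 in LRRK2-GS, against 3.43 and 3.27 in LRRK2-WT, all LRRK2-GS arrays below (-0.27, limma unadjusted p = 0.030, adjusted p = 0.826). It was chosen for mention after its values were seen.

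Of the Abcb genes, Abcb4 encodes the phosphatidylcholine floppase of the canalicular membrane. It read 8.90, 9.61 and 8.89 in LRRK2-GS, against 9.23 and 9.25 in LRRK2-WT, with LRRK2-GS 2 above and the other 2 below. The difference was -0.11 (interval -0.92 to 0.70). Abcb10, a transporter of the inner mitochondrial membrane linked to heme synthesis, read 5.24, 5.35 and 5.64 in LRRK2-GS, against 5.20 on both LRRK2-WT arrays. All LRRK2-GS arrays lay above, by a difference of 0.21 (interval -0.20 to 0.62, limma adjusted p = 0.826), which was 0.10 without LRRK2-GS 3. Abcb6, a transporter linked to porphyrins, differed by -0.01. The drug exporter P-glycoprotein has a pair of genes in mice. Abcb1a differed by -0.07 and Abcb1b, whose mean lay below background, by 0.19 with every LRRK2-GS array above, and both are named after their values were seen. With Abcg2 and Abcb10, Abcb1b completed the 3 export genes with every LRRK2-GS array above both LRRK2-WT arrays, and Abcg3 was the only 1 with every array below. Over all tested probe sets the shares were 3.76% above and 3.74% below.

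**Figure D2:**
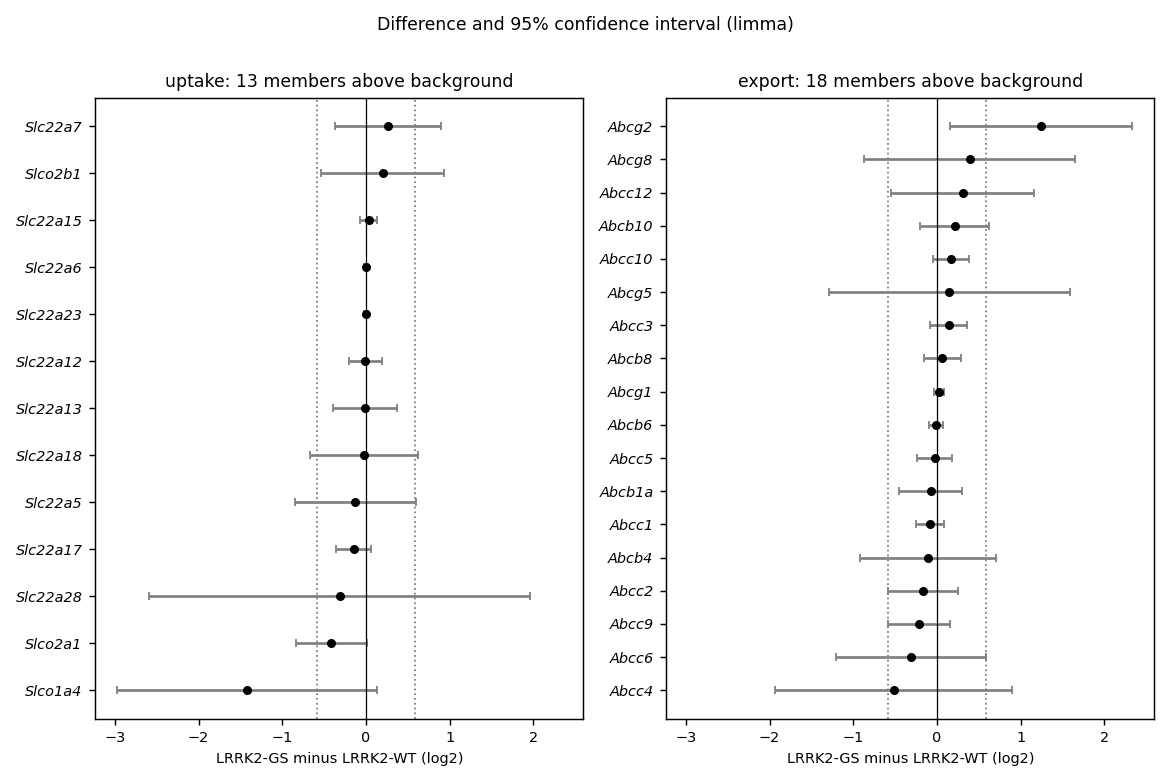
Difference between LRRK2-GS and LRRK2-WT (log2) for the 13 uptake genes (left) and 18 export genes (right) above background. Points are limma differences, bars their 95% intervals, dotted lines 1.5-fold in either direction, and only the interval of Abcg2 leaves out 0.

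The Abcc genes, the multidrug resistance-associated proteins and their relatives, held no called gene. Of 9 above background, 3 were higher and 6 lower in LRRK2-GS, with a median of -0.08, and none had groups that did not overlap. Abcc2, which exports bilirubin glucuronides and other conjugates into bile, read 9.48, 9.59 and 9.60 in LRRK2-GS, against 9.92 and 9.52 in LRRK2-WT. LRRK2-WT 1 alone stood apart, and without it the difference of -0.16 became 0.04. Abcc3, the exporter of conjugates on the blood side of hepatocytes, read 8.56, 8.67 and 8.53 in LRRK2-GS, against 8.53 and 8.37 in LRRK2-WT, a difference of 0.14 (interval -0.08 to 0.36) that was 0.22 without LRRK2-WT 1 and 0.05 without LRRK2-WT 2.

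Abcc6, which supports ATP release from liver cells and is mutated in pseudoxanthoma elasticum, read 6.22, 5.73 and 6.59 in LRRK2-GS, against 6.63 and 6.35 in LRRK2-WT (difference -0.31, and -0.09 to -0.52 with each array left out). Abcc9, the regulatory subunit Sur2 of ATP-sensitive potassium channels rather than an exporter, differed by -0.21, and by -0.06 without LRRK2-WT 1 and -0.37 without LRRK2-WT 2. Abcc4, an exporter of cyclic nucleotides and conjugates that is named after its values were seen, had the widest spread of the family. It read 5.42, 4.03 and 4.47 in LRRK2-GS, against 5.22 and 5.10 in LRRK2-WT, so that LRRK2-GS 1 lay with LRRK2-WT and the other LRRK2-GS arrays lay below (difference -0.52, interval -1.93 to 0.89).

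Uptake and export were then set side by side. A mean above background was reached by 13 of 34 uptake genes and 18 of 24 export genes, against 54.1% of all tested probe sets, and this is a statement about probe signal. Among those above background, 3 uptake genes were higher, 8 lower and 2 without a difference in LRRK2-GS, and 9 export genes were higher and 9 lower. The medians were -0.01 for uptake and 0.01 for export. The 21 uptake genes not above background differed by -0.12 to 0.19 and the 6 export genes not above it by -0.27 to 0.19. The 11 genes above background that the naming rule left out, 3 uptake and 8 export, differed by -0.52 to 0.30. Without the 6 Abc genes of inner membranes or channel subunits, 18 export genes had a median of 0.03. The difference between uptake and export was not tested.

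**Figure D3:**
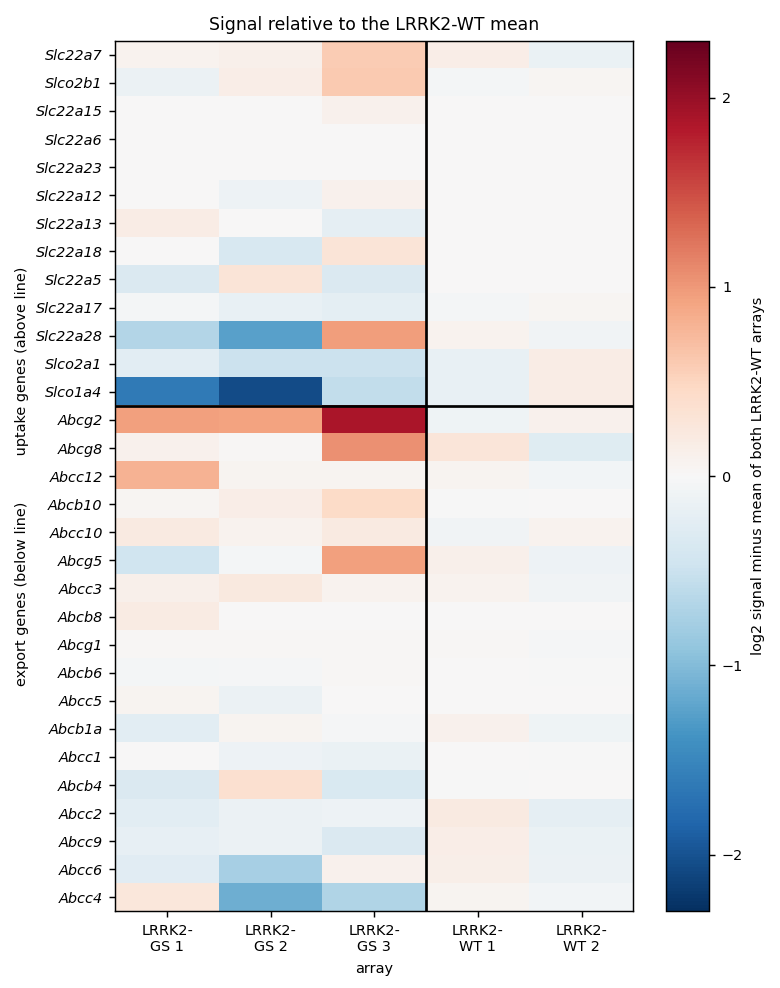
Signal of the 31 transporter genes above background on each array, as log2 signal minus the mean of both LRRK2-WT arrays, with LRRK2-GS arrays left of LRRK2-WT arrays and uptake genes above export genes. The LRRK2-GS arrays differ among themselves, with LRRK2-GS 3 the reddest of them for Abcg2, Abcg5, Abcg8 and Slc22a28.

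The LRRK2-GS arrays varied among themselves more than the LRRK2-WT arrays. For the 31 genes above background the range over the 3 LRRK2-GS arrays had a median of 0.31 and that over the 2 LRRK2-WT arrays one of 0.09, where a range over 3 values is wider than over 2 by construction. The same medians over all tested probe sets above background were 0.20 in LRRK2-GS and 0.07 in LRRK2-WT. In 12 of the 31 genes (38.7%) the LRRK2-GS arrays lay on both sides of the LRRK2-WT arrays, against 28.5% of all tested probe sets above background. LRRK2-GS 3 was the highest LRRK2-GS array in 14 of the 31 (45.2%), against 22.8% of all tested probe sets above background. The genes share these arrays and are not independent, so the shares are given as a description.

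Neighbouring genes were also compared. Of the 58 genes 30 lay in 10 clusters with gaps under 1000000 bases, and 14 of the 30 were above background. Abcg5 and Abcg8 shared a direction, as did Abcc10 (0.16) and Slc22a7 (0.26), neighbours on chromosome 17 that are named after their values were seen. On chromosome 6 Slco1a4 (-1.42) and Abcc9 (-0.21) were both lower. On chromosome 5 Abcb4 (-0.11) and Abcb1a (-0.07) were both lower, while Abcb1b between them, below background, was higher (0.19). On chromosome 19 Slc22a28 differed by -0.32 while Slc22a6, the renal organic anion transporter Oat1, held 1 value on all arrays. Only genes above background were paired, and Abcb4 and Abcg5 changed direction without LRRK2-GS 3. No share of neighbours over all tested probe sets is given, so the shared directions are a description.

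**Figure D4:**
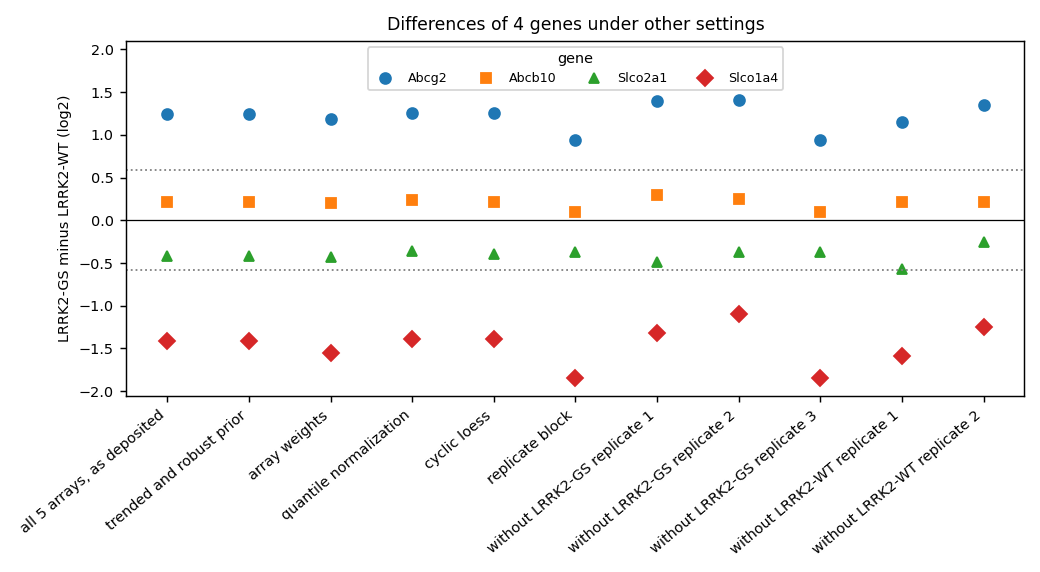
Difference between LRRK2-GS and LRRK2-WT (log2) of the 4 genes above background with groups that did not overlap, under each setting named on the x axis. Dotted lines mark 1.5-fold. Abcg2 lay between 0.94 and 1.41, Abcb10 between 0.10 and 0.30, Slco2a1 between -0.57 and -0.25 and Slco1a4 between -1.84 and -1.09. Every gene kept its direction, but without overlap another prior, array weights, the replicate block or a left-out array could not reverse it.

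Genes that work beside these carriers were counted from lists. Of 21 other organic anion, cation and bile acid carriers, 7 were higher, 12 lower and none called. Slc29a1, the nucleoside transporter Ent1, read 6.99, 7.11 and 7.58 in LRRK2-GS, against 7.86 and 7.62 in LRRK2-WT, all LRRK2-GS arrays below (difference -0.51). Slc13a3, the dicarboxylate carrier, differed by -0.56 and Slc16a1, the monocarboxylate carrier Mct1, by 0.37. Of 26 genes of other ABC families, 13 were higher, 11 lower and none called. Abcd2, which brings very long-chain fatty acids into peroxisomes, read 6.79, 7.81 and 6.58 in LRRK2-GS, against 8.53 and 7.90 in LRRK2-WT, all LRRK2-GS arrays below (difference -1.15, limma adjusted p = 0.826). Abca8a differed by -0.62 and Abca9 by -0.51.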

How the data were processed

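The authors exported GeneChip Mouse 2.0 ST arrays with the GeneChip Command Console software and deposited 1 table of log2 expression values for 33640 probe sets. Background correction and normalization were not given in the sources used here. Array medians lay between 3.26 and 3.28, and the values were used as deposited. The 23396 probe sets with exactly 1 symbol in the platform annotation were tested, while 1812 carried several symbols and 8432 none. By gene ID, 23203 were found in GRCm38.p6, which changed no symbol among the 58 genes. Each gene is represented by its probe set of highest mean signal (Slco2b1 has 2 probe sets).

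Statistics used limma 3.58.1 in R 4.3.3, LRRK2-GS minus LRRK2-WT without a replicate block, with default eBayes. Two-sided p-values were adjusted by Benjamini-Hochberg across every probe set tested. limma replaced the independent t tests of the methods because groups held 2 and 3 arrays. The prior degrees of freedom were 0.595, so each spread rests mostly on a gene's own values. The number of arrays limits the precision. Only the limma step was tested on simulated arrays, with known shifts and without the repeated values of the deposited table. That test checked the size of the differences and not the share called. Promoters are RefSeq windows.

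The genes, lists, markers and alternatives were chosen with earlier results of these data known, and the motifs after these values were seen. Genes were named if over 1.5-fold, among the 10 uptake or the 10 export genes with the highest mean, or above background with groups that did not overlap or with an unadjusted p under 0.05. From each other list up to 3 genes with the largest difference among those above background were named. Alternatives were another prior, array weights, other normalizations, probe set filters, the methods' t-test, a replicate block and each array left out.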

Additional observations from a re-analysis of the deposited data

How the results depend on the processing

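No transporter gene was called under any alternative. The count over 1.5-fold lower was 2 with array weights and with the replicate block (1 as reported), and 1 to 2 with each array left out, as was the count over 1.5-fold higher. The 2 renormalizations moved the counts of genes whose groups did not overlap, and the cause was not tested. For these counts, and for those with an array left out, no share over all tested probe sets is given. They therefore cannot be read as a result about the transporters. Uptake genes with every LRRK2-GS array below both LRRK2-WT arrays numbered 12 with quantile normalization and 12 with cyclic loess (2 as reported), and those above numbered 1 with quantile normalization (0). Export genes above numbered 6 and 5 (3), and those below 3 and 2 (1), with 0 among probe sets above background. With each array left out, uptake genes above numbered 1 to 4 and below 3 to 5, and export genes above 4 to 7 and below 1 to 6, where fewer arrays overlap less often by construction. The uptake median was -0.018 with quantile normalization, -0.013 with cyclic loess, -0.011 above background only and -0.0090 without genes holding 1 value on all arrays, an alternative added after seeing the data. Left-out arrays gave export medians of -0.011 to 0.052 and uptake minus export medians of -0.052 to 0.011.

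Of the named genes, Abcb6 turned to 0.0076 with quantile normalization and 0.00095 with cyclic loess, and Slc22a18 to 0.0092 with quantile normalization. With the replicate block Abcb4 turned to 0.013, Abcg5 to -0.25 and Slc22a13 to 0.089, as without LRRK2-GS 3, which has no partner. Left-out arrays gave ranges of -0.35 to 0.013 for Abcb4, -0.37 to 0.038 for Abcc2, -0.25 to 0.45 for Abcg5, -0.11 to 0.089 for Slc22a13, -0.18 to 0.15 for Slc22a18 and -0.96 to 0.15 for Slc22a28. Deviations of same-numbered arrays correlated at -0.13 and 0.09. With 2 LRRK2-WT arrays, the deviation of 1 mirrors that of the other, so these values cannot decide whether same-numbered arrays were paired. Without an LRRK2-WT array, the lone one is assumed to vary like LRRK2-GS.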

Other observations

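Of 18 receptors and transcription factors known to control transporter genes, 14 were lower and 4 higher in LRRK2-GS, none was called, and the median difference was -0.20 against 0 for all tested probe sets. Cux2, a homeodomain factor known as female-biased in mouse liver, read 4.58, 4.58 and 4.34 in LRRK2-GS, against 4.92 and 4.92 in LRRK2-WT, a difference of -0.42 with no overlap. Ppara, the fatty acid receptor, read 5.51, 5.63 and 6.16 in LRRK2-GS, against 6.77 and 5.78 in LRRK2-WT (difference -0.51), and the groups overlapped. Ghr, the growth hormone receptor, differed by -0.47, with LRRK2-GS 3 above both LRRK2-WT arrays. The sex-linked genes given above move with these groups too, and their part was not tested.

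Of 14 flippases and membrane scaffolds of the canalicular membrane, 4 were higher, 10 lower and none called. Vps33b differed by -0.30, with groups that overlapped and LRRK2-WT 2 at 6.08 against 5.33 in LRRK2-WT 1. Vipas39, its partner in vesicle sorting, differed by -0.26, with every LRRK2-GS array below both LRRK2-WT arrays. Stx3, a syntaxin of apical membranes, differed by 0.19, with LRRK2-GS 1 at 4.38 and 3.80 on the other 4 arrays.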
